A study of Homo sapiens with 8 samples.

Results

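The regions described here are all windows of the FAIRE-seq count table that lie on chromosomes 4, 13 and 18. They were chosen by chromosome name alone, and they number 8500 of the 256141 windows in the table, or 3.32%. Chromosome 4 held 3282 of them, chromosome 13 held 1467 and chromosome 18 held 3751. FAIRE-seq sequences the DNA that stays free of nucleosome crosslinks after formaldehyde fixation, so a high count marks open chromatin. The cells were AIRE-Tet cells, a Tet-On Advanced HEK293 line in which doxycycline switches on human AIRE. The study crossed AIRE induction with etoposide. DoxEtop cells received 1.5 µM doxycycline and then 2 µM etoposide for 24 h, Dox cells received 1.5 µM doxycycline alone, Etop cells received 2 µM etoposide for 24 h without induction, and Control cells received neither agent. Each of the 4 groups had 2 independent biological replicates. All groups carried the inducible construct, and cells without it were not analysed here, so doxycycline itself and AIRE cannot be told apart. AIRE level was not measured by these libraries.

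AIRE, the autoimmune regulator, is a nuclear protein best known from medullary thymic epithelial cells, where it drives low-level transcription of many tissue-restricted genes so that developing T cells meet their products. It is known to act together with DNA topoisomerases. Etoposide is a topoisomerase II poison that stabilizes the enzyme's DNA breaks. Gene-poor chromosomes hold long stretches of closed, late-replicating chromatin, tend to lie near the nuclear periphery, and have few CpG-island promoters.

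The name gene-poor fits all 3 chromosomes when genes are counted per length. In the RefSeq table of the GRCh38.p14 assembly, chromosome 13 had 2.96 protein-coding genes per Mb, chromosome 18 had 3.36 and chromosome 4 had 4.05, the 3 lowest densities among the 22 autosomes and X. Chromosome 19, the densest, had 24.8. Length here ran from the first to the last RefSeq gene of a chromosome, not over the span of its windows. By the FAIRE windows themselves the 3 chromosomes were less alike. Chromosome 13 had 15.5 windows per Mb of spanned sequence and chromosome 4 had 17.2, the 2 lowest values of 23. Chromosome 18 had 48.1, which ranked 7 of 23 from the low end, and chromosome 19 had 653.

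Neighbouring windows were 150 bp wide and started every 50 bp, so they shared fragments. Windows separated by at most 100 bp were therefore joined into regions, which gave 628 regions on chromosome 4, 315 on chromosome 13 and 510 on chromosome 18, of 35741 in the table. In hg19 coordinates the windows ran from 53001 to 190862050 on chromosome 4, from 20207601 to 115080350 on chromosome 13 and from 11551 to 78005700 on chromosome 18. Chromosome 13 is acrocentric, and its short arm carries ribosomal RNA gene repeats. The median distance between neighbouring regions was 82.9 kb on chromosome 4, 85.3 kb on chromosome 13 and 34.6 kb on chromosome 18. Since the genome sequence and gene annotation of hg19 were not used here, regions are named by position and no gene or sequence is given for them.

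Open sites on these chromosomes had a lower median count than the table as a whole and lacked its strongest and widest sites. The median window held 147 counts over the 8 libraries on chromosome 4, 147 on chromosome 13 and 155 on chromosome 18, against 160 over all windows. No window exceeded 329 counts on chromosome 4, 324 on chromosome 13 or 438 on chromosome 18, while the highest window of the table held 5688. The widest region measured 1250 bp on chromosome 4, 1350 bp on chromosome 13 and 2000 bp on chromosome 18, against 5400 bp in the table, although the median width was 350, 300 and 350 bp on chromosomes 4, 13 and 18 and 350 bp in the table. When all windows were ranked by mean level and cut into 3 equal classes, the upper class held 19.1% of the windows of chromosome 4, 19.8% of chromosome 13 and 28.9% of chromosome 18, against 33.3% by construction in the table. Input DNA was not analysed here, so levels on different chromosomes are not corrected for the number of copies that HEK293-derived cells carry.

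At the strongest sites AIRE induction gave no change that passed the test. The strongest window of chromosome 18 (hg19, 61089751 to 61089900, in a region of 1000 bp) had levels of 8.21 and 7.71 CPM (counts scaled to the size of each library) in DoxEtop cells. It had 7.82 and 11.7 CPM in Dox cells, 12.1 and 10.1 CPM in Etop cells, and 9.75 and 7.49 CPM in Control cells. The induced libraries averaged 8.86 ± 1.90 CPM and the uninduced libraries 9.85 ± 1.87 CPM (SD, n = 4 each), a difference within the spread. The strongest window of chromosome 4 (87515251 to 87515400) averaged 7.58 ± 1.52 CPM in induced and 6.58 ± 1.02 CPM in uninduced libraries, and that of chromosome 13 (60738051 to 60738200) averaged 6.82 ± 2.45 and 6.96 ± 0.591 CPM. Their log2 fold changes with AIRE induction were -0.16, 0.19 and -0.06 on chromosomes 18, 4 and 13, and none passed the test. The widest region, 2000 bp from 5628901 to 5630900 on chromosome 18, averaged 5.50 ± 0.530 CPM in induced and 4.94 ± 0.700 CPM in uninduced libraries at its strongest window, and 2 of its 36 windows rose with induction.

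The column totals of the table ran from 4489871 to 8275911. Because windows overlap, these totals are not the depths of the libraries. Over the windows of the 3 chromosomes, log2 levels relative to each window's mean correlated by 0.171 to 0.448 between replicates of a group (median of 4 pairs 0.367) and by -0.039 to 0.382 between libraries of different AIRE state (median of 16 pairs 0.128). Control replicate 1 stood closest to the induced libraries: the value of 0.382 was its correlation with Dox replicate 1. The lowest replicate correlation, 0.171, was that of the Etop pair.

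AIRE induction lowered more of these windows than it raised, but it lowered a smaller share of them than of the table. In a model with additive terms for induction and for etoposide, fitted to all 8 libraries (edgeR's quasi-likelihood test, Benjamini-Hochberg adjustment over all 256141 windows, called at an adjusted p below 0.05), 15809 windows of the table fell, or 6.17%, and 3253 rose, or 1.27%, which makes 7.44% called in either direction. On chromosome 4, 69 windows fell (2.10%) and 40 rose (1.22%). On chromosome 13, 24 fell (1.64%) and 9 rose (0.613%). On chromosome 18, 115 fell (3.07%) and 51 rose (1.36%). The share of windows that fell was thus under the table's on each of the 3 chromosomes, while the share that rose lay near the table's on chromosomes 4 and 18. Of the called windows, 63.3% had fallen on chromosome 4, 72.7% on chromosome 13 and 69.3% on chromosome 18, against 82.9% in the table.

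Counted as regions, with Simes' p adjusted over all 35741 regions, 12.9% of the table fell and 1.42% rose. On chromosome 18, 41 regions fell (8.04%) and 3 rose (0.588%). On chromosome 4, 27 fell (4.30%) and 13 rose (2.07%), and on chromosome 13, 8 fell (2.54%) and 4 rose (1.27%). For losses chromosome 18 thus stood between the other two and the table, both as windows and as regions. For gains chromosome 18 lay under the table as regions, which rested on 3 regions, but near the table as windows. The calls depended on the tool: limma-voom called 0, 1 and 1 windows on chromosomes 4, 13 and 18, both of them higher, against 625 lower and 234 higher windows in the table, and its adjusted p at the 27 regions named for AIRE induction ran from 0.0499 to 0.39. Whether an open site changed in fewer cells or changed less in each cell cannot be told apart in these bulk libraries.

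Across the 22 autosomes and X, chromosomes with fewer windows per Mb had fewer windows that fell (Spearman's rho 0.77 over 23 chromosomes, which share the same libraries). Chromosome 13 had the second lowest share of windows that fell, chromosome 4 the third lowest and chromosome 18 the seventh lowest. The lowest was 1.44% on chromosome 8 and the highest 10.0% on chromosome 19.

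**Figure D1:**
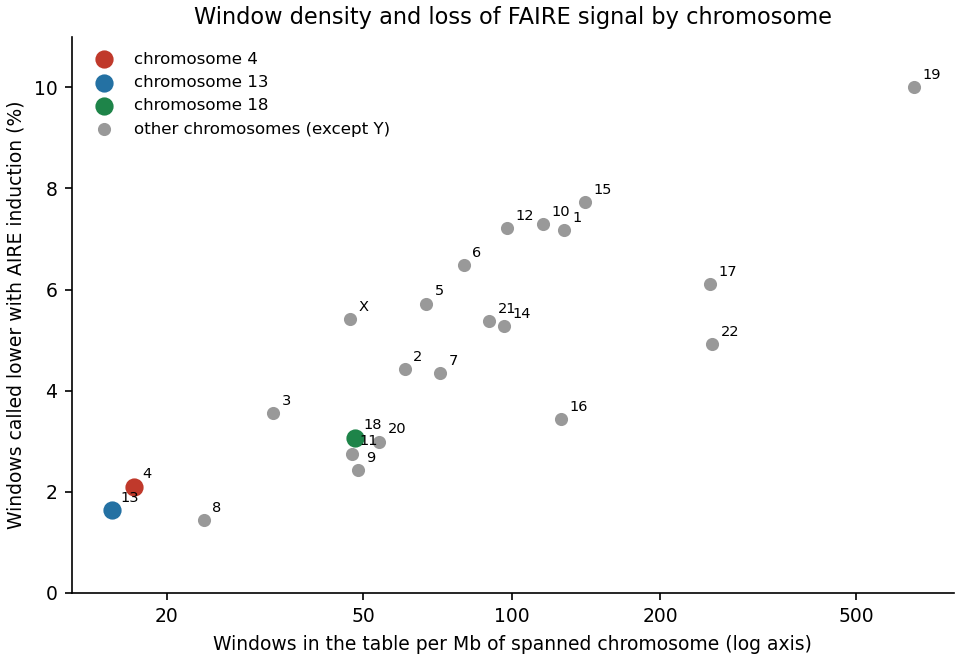
Each point is 1 chromosome. The x axis gives the windows of the table per Mb of spanned sequence (log axis) and the y axis the percentage of its windows called lower with AIRE induction. Chromosomes 13 and 4 sit at the lower left with 1.64% and 2.10%, chromosome 18 lies further right with 3.07%, and chromosome 19 is at the upper right with 10.0%.

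The size of a called change was like that elsewhere. Calls had to pass the same adjusted p at similar standard errors, which largely sets this size. Windows that fell had a median log2 fold change of -1.37 on chromosome 4, -1.44 on chromosome 13 and -1.46 on chromosome 18, against -1.49 in the table. Windows that rose had medians of 1.32, 1.26 and 1.28 on chromosomes 4, 13 and 18, against 1.17 in the table. The typical standard error was also close, with medians of 0.385, 0.385 and 0.374 on chromosomes 4, 13 and 18 and 0.369 in the table. The bulk of the windows lay higher than in the table. The median log2 fold change was 0.11 on chromosome 4, 0.13 on chromosome 13 and 0.16 on chromosome 18, against 0.04 over all windows. Medians like these were not limited to the 3 chromosomes, since chromosome 8 had 0.18, chromosome 9 had 0.14 and chromosome 20, with 8.36 coding genes per Mb, had 0.15. Only 41.2%, 38.2% and 39.0% of the windows of chromosomes 4, 13 and 18 had a value below 0, against 47.5% in the table. At the fifth percentile the log2 fold changes were -0.86, -0.83 and -0.93 on chromosomes 4, 13 and 18 and -1.25 in the table. Each median is smaller than the standard error of a single window, and fold changes are relative to the scaling of the whole table.

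**Figure D2:**
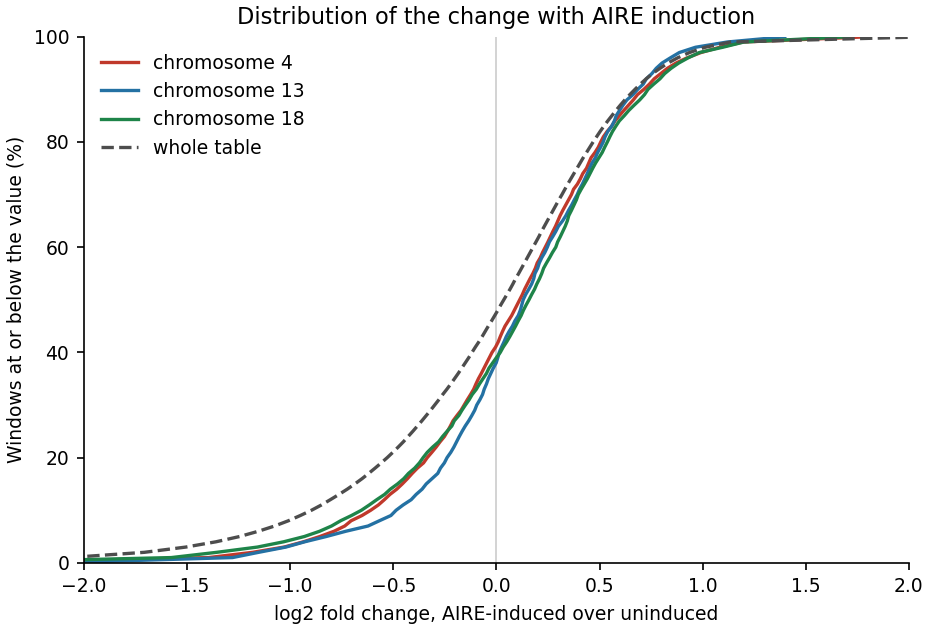
Cumulative distribution of the log2 fold change with AIRE induction (induced over uninduced, x axis) for the windows of chromosomes 4, 13 and 18 and for the whole table (dashed). The y axis is the percentage of windows at or below the value. On the negative side the 3 chromosomes lie below the table, with 38.2% to 41.2% of their windows under 0 against 47.5%.

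The same direction appeared in the share of each library's window counts that fell on these chromosomes. These shares come from the same counts as the fold changes, so they are not separate evidence. Chromosome 18 took 1.43% and 1.45% of the counts of the DoxEtop libraries and 1.45% and 1.47% in Dox, against 1.27% and 1.33% in Etop and 1.42% and 1.31% in Control. All 4 induced libraries were above all 4 uninduced ones, with means of 1.45 ± 0.0162% and 1.33 ± 0.0626% (SD, n = 4 each). Chromosome 4 took 1.12% and 1.12% in DoxEtop and 1.18% and 1.17% in Dox, against 1.05% and 1.06% in Etop and 1.16% and 1.01% in Control. Here the arms overlapped, since Control replicate 1 exceeded both DoxEtop libraries, and the means were 1.15 ± 0.0283% and 1.07 ± 0.0656%. Chromosome 13 took 0.503% and 0.515% in DoxEtop and 0.528% and 0.530% in Dox, against 0.472% and 0.473% in Etop and 0.503% and 0.443% in Control, with means of 0.519 ± 0.0128% and 0.473 ± 0.0246%. Control replicate 1 again lay among the induced libraries. The ratio of the arm means was 1.09 on chromosome 18, 1.07 on chromosome 4 and 1.10 on chromosome 13. It was 1.12, 1.10 and 1.11 on chromosomes 8, 9 and 20. Chromosome 16, with 9.47 coding genes per Mb, had 1.07, and chromosome 19 had 0.914. Within a library, a lower share on some chromosomes raises the share of others. The 95% Wilson intervals of the single shares reached at most 0.011 percentage points to either side. They cover counting error only, and they are too narrow because overlapping windows count fragments more than once. The difference of arm means on chromosome 4 was 0.0769 percentage points, 0.139 with 1 window counted per region and 0.0298 with only the windows at or above the table's median level. On chromosome 13 it was 0.0464 points, 0.0999 with 1 window per region and 0.0215 at or above that level.

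**Figure D3:**
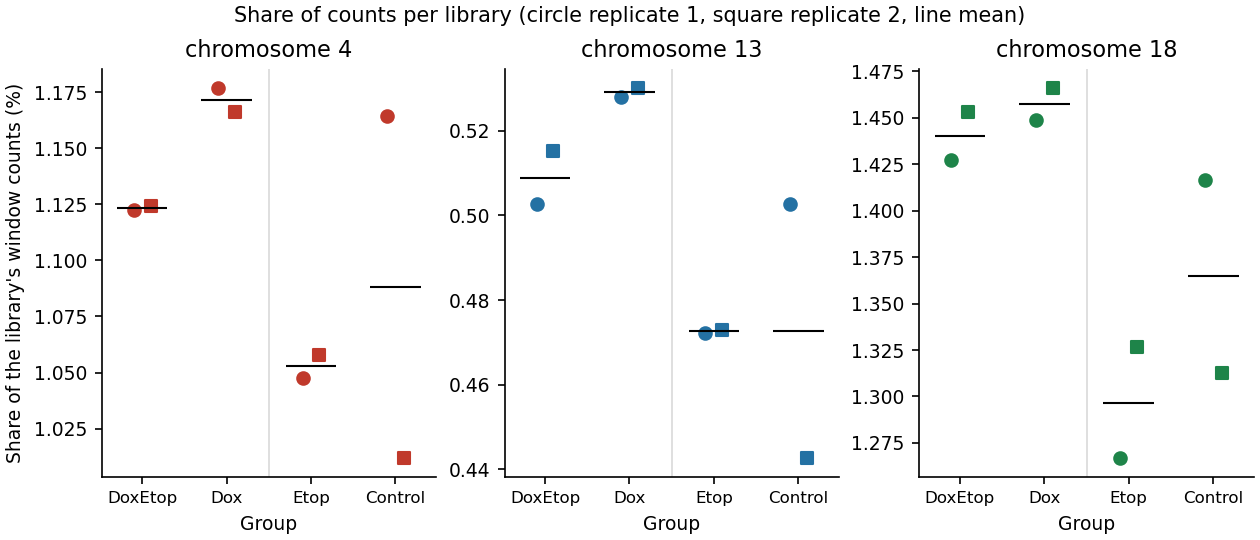
Share of each library's window counts (y axis, percent) on chromosomes 4, 13 and 18 (panels), by group. Circles are replicate 1, squares replicate 2 and lines the group means. On chromosome 18 the DoxEtop and Dox libraries lie between 1.43% and 1.47%, above all Etop and Control libraries, while on chromosomes 4 and 13 Control replicate 1 reaches the induced range.

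The clearest losses were at single, separate sites. Since the table holds only windows with at least 111 counts in sum, such low sites can be present mainly through their uninduced counts. On chromosome 18 the region with the smallest p was a window of 150 bp at 21451551 to 21451700. It held 4 and 8 counts in the DoxEtop libraries and 0 and 3 in Dox, against 45 and 22 in Etop and 24 and 27 in Control. No induced library came near an uninduced one, and the mean level was 0.748 ± 0.649 CPM in induced against 4.55 ± 1.50 CPM in uninduced libraries (SD, n = 4 each). The log2 fold change was -2.66 (SE 0.485, edgeR adjusted p = 0.000133). The second site of chromosome 18, at 57181601 to 57181750, had 0.373 and 2.37 CPM in DoxEtop and 0.191 and 1.10 in Dox, against 5.74 and 4.38 in Etop and 3.37 and 6.14 in Control. It fell by 2.31 on the log2 scale (edgeR adjusted p = 0.000503), and the arms did not overlap. The other 3 sites of chromosome 18 named by the same rule lay at 56737651 to 56737950, 47037201 to 47037400 and 21718751 to 21719450. Their log2 fold changes were -1.96, -2.15 and -2.25, with the arms apart at each.

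On chromosome 4 the first site was at 78077651 to 78078000. Its leading window had 0.746 and 1.19 CPM in DoxEtop and 2.10 and 0.662 in Dox, against 8.33 and 2.85 in Etop and 2.77 and 8.84 in Control. Etop replicate 1 and Control replicate 2 were about 3 times as high as the other uninduced libraries, yet the lowest of the 4 was above every induced one. The log2 fold change was -2.26 (SE 0.430, edgeR adjusted p = 0.000245). The site at 123653451 to 123654100 was steadier, with 1.68 and 1.78 CPM in DoxEtop and 2.29 and 1.54 in Dox, against 6.60 and 6.58 in Etop and 5.30 and 5.84 in Control. It averaged 1.82 ± 0.325 CPM in induced and 6.08 ± 0.630 CPM in uninduced libraries and fell by 1.72 on the log2 scale (edgeR adjusted p = 0.000557). The remaining sites, at 154143451 to 154143750, 152682001 to 152682350 and 120133501 to 120134400, fell by 1.85, 2.02 and 2.28 on the log2 scale, with the arms apart at each.

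On chromosome 13 the first site, at 50656101 to 50656450, had 0.187 and 1.58 CPM in DoxEtop and 2.10 and 0.662 in Dox, against 6.46 and 3.95 in Etop and 3.61 and 6.14 in Control. The arms did not overlap and the log2 fold change was -2.14 (SE 0.440, edgeR adjusted p = 0.000729). The site at 45492051 to 45492700 fell by 1.55 on the log2 scale (edgeR adjusted p = 0.00363), but its arms overlapped. It had 1.68 and 3.96 CPM in DoxEtop and 1.53 and 0.882 in Dox, against 7.04 and 6.80 in Etop and 3.01 and 6.29 in Control, so that DoxEtop replicate 2 was above Control replicate 1. Sites at 95253801 to 95254600, 20766351 to 20766550 and 27538951 to 27539250 fell by 1.90, 1.56 and 1.75 on the log2 scale with the arms apart. At the last 2 of these Etop replicate 1 read 7.90 CPM, at least 2 times any other library.

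The named gains ranged from 1.18 to 1.71 on the log2 scale, against 1.55 to 2.66 in size for the named losses. The minimum of summed counts bears on gains too, since a low window can pass it mainly through induced counts. At 42031251 on chromosome 13 the DoxEtop libraries held 25 and 13 counts and the Dox libraries 10 and 24. The Etop libraries held 9 and 6 counts there, and the Control libraries 19 and 8. How far this minimum shaped the sizes of gains and losses was not tested. On chromosome 4 the leading gain, at 146540301 to 146540650, had 6.34 and 4.55 CPM in DoxEtop and 5.91 and 5.95 in Dox, against 0.574 and 2.41 in Etop and 3.49 and 1.50 in Control. It averaged 5.69 ± 0.784 CPM in induced and 1.99 ± 1.25 CPM in uninduced libraries, a log2 fold change of 1.54 (SE 0.372, edgeR adjusted p = 0.00438). On chromosome 18 the site at 77724451 to 77724800, in which all 5 windows rose, had 6.34 and 5.74 CPM in DoxEtop and 3.81 and 7.28 in Dox, against 1.01 and 1.75 in Etop and 2.89 and 3.15 in Control (log2 fold change 1.43, edgeR adjusted p = 0.00616). On chromosome 13 the site at 21635601 to 21635950 had 6.53 and 4.95 CPM in DoxEtop and 5.53 and 6.62 in Dox, against 1.87 and 2.85 in Etop and 3.49 and 1.65 in Control (log2 fold change 1.26, edgeR adjusted p = 0.0109). At all 3 of these sites the induced libraries were above the uninduced ones. The other named gains had log2 fold changes of 1.41 to 1.61 on chromosome 4, 1.18 to 1.40 on chromosome 13, and 1.71 and 1.50 on chromosome 18. Of these, the arms overlapped at 42031251 to 42031400 on chromosome 13 and at 7566501 to 7567300 on chromosome 18. The sites at 43566151 and 42031251 on chromosome 13 are single windows that passed as regions (edgeR with Simes' p, adjusted p = 0.0408 and 0.0420) but not as windows (edgeR adjusted p = 0.0620 and 0.0637).

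**Figure D4:**
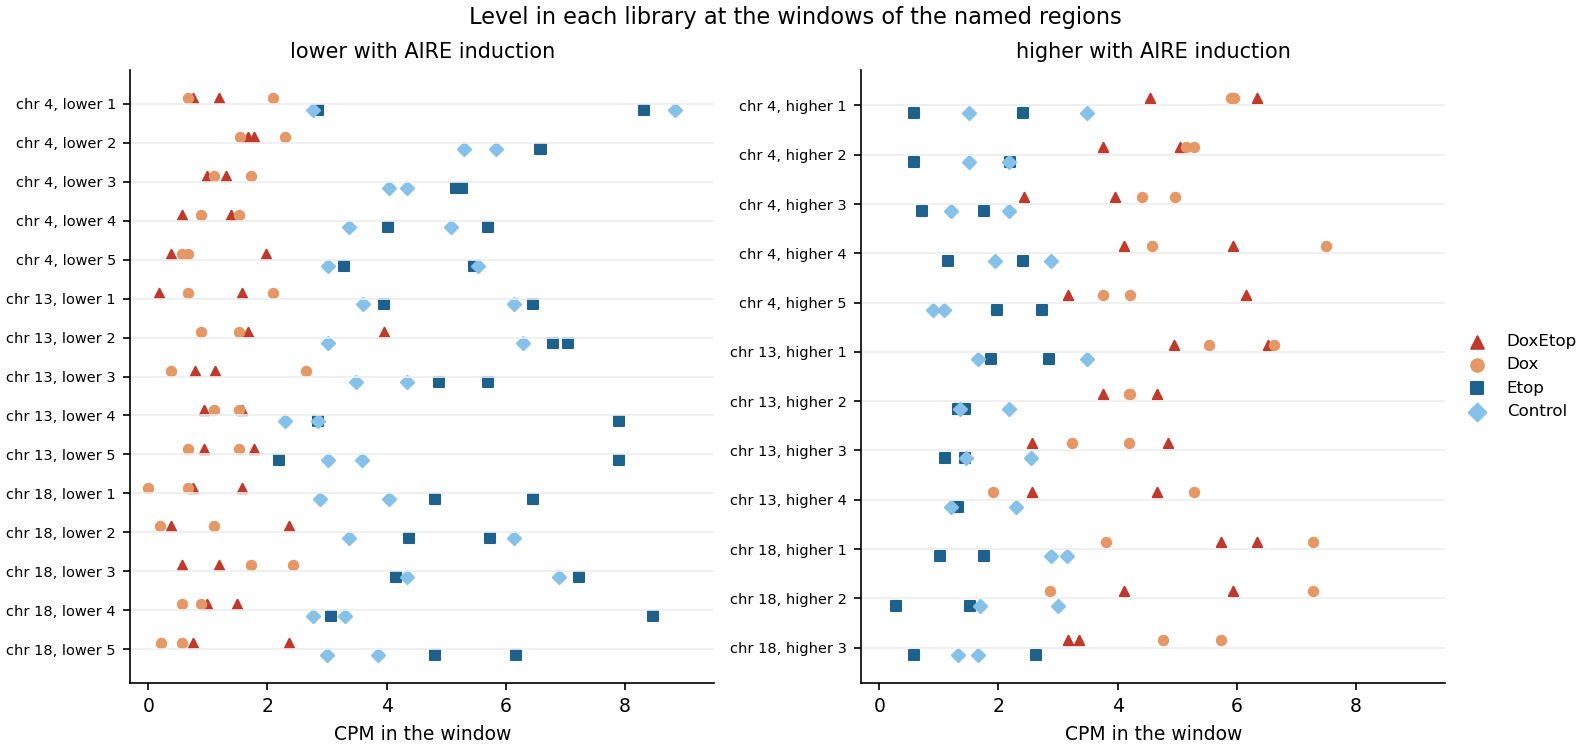
Level in CPM (x axis) of each of the 8 libraries at the leading window of the 27 named regions, those lower with AIRE induction on the left and those higher on the right. The upper markers of each line are DoxEtop (triangles) and Dox (circles), the lower ones Etop (squares) and Control (diamonds). On the left most induced libraries lie under 2.5 CPM, and single Etop or Control libraries reach up to 8.84 CPM.

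On chromosome 18 the share of windows that fell was highest in narrow regions, although they held only 58 of its 115 losses. Every window of the table has at least 111 counts in sum. Column totals ran from 4568818 to 8275911 in uninduced and from 4489871 to 5305079 in induced libraries. A narrow or low window can pass the floor of 111 mainly through uninduced counts, which favours losses among such windows. Other low windows can pass it mainly through induced counts, which favours gains. How far this shaped the shares by width and level was not tested. Of its 493 windows in regions up to 300 bp wide, 11.8% fell, against 9.93% of such windows in the table. Only 1 rose (0.203%, against 0.533% in the table). In its wider regions the share that fell was 2.63% (over 300 to 500 bp), 1.87% (over 500 to 1000 bp) and 0.815% (over 1000 to 2000 bp), against 7.27%, 4.92% and 4.64% in the table. The 982 windows in its widest class included 8 that fell and 17 that rose, with a median log2 fold change of 0.27. The share that rose, 1.73%, equalled the table's 1.73% in that class, where the table's median was 0.15. Chromosomes 4 and 13 showed no such gradient. Their narrow regions fell in 3.23% and 1.59% of windows, and their regions over 500 to 1000 bp in 2.14% and 2.74%. The widest class held 130 windows on chromosome 4, of which 4 fell, and 45 on chromosome 13, of which none fell and none rose. In the table the share that fell was 4.64% to 9.93% in these 4 classes, so the low share on chromosomes 4 and 13 was present in every width class.

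**Figure D5:**
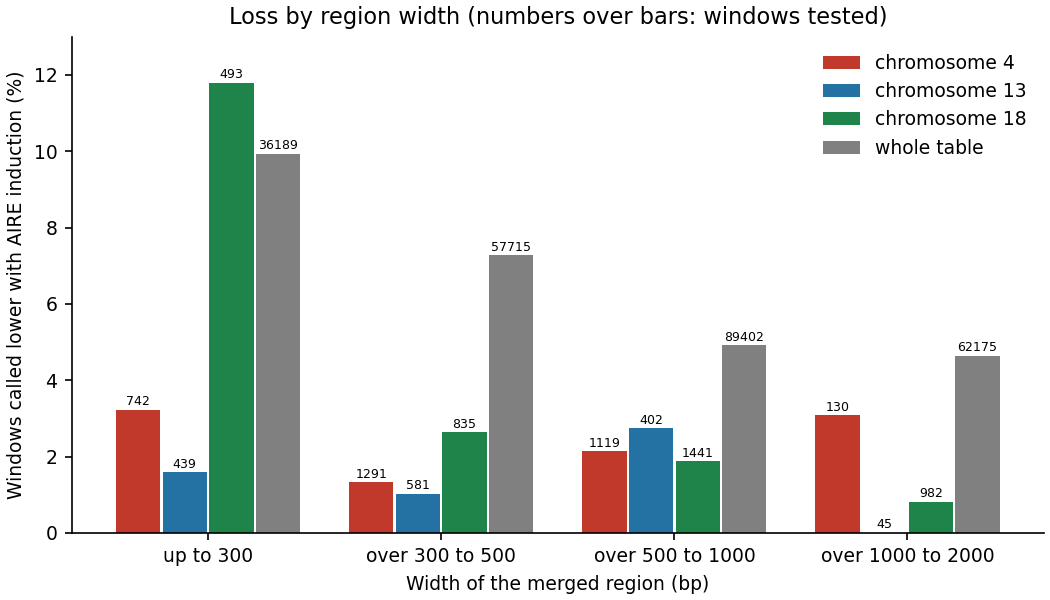
Percentage of windows called lower with AIRE induction (y axis) by the width of the merged region in bp (x axis), for chromosomes 4, 13 and 18 and the whole table. Numbers over the bars are the windows tested. In the narrowest class chromosome 18 stands at 11.8% and the table at 9.93%, and in the 3 wider classes all 3 chromosomes stay below the table.

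Level gave a similar picture, with the same limit from the floor of counts. On chromosome 18, 4.43% of the windows in the lowest class of level fell, 2.90% in the middle class and 1.57% in the highest, against 6.62%, 6.41% and 5.49% in the table. On chromosome 4 the shares were 2.08%, 2.06% and 2.23%, and on chromosome 13 they were 1.27%, 2.56% and 0.690%, the last of these resting on 2 windows. When only the windows at or above the table's median level were fitted, 2.83% fell on chromosome 4, 2.54% on chromosome 13 and 2.64% on chromosome 18, against 6.99% of such windows in the table.

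The changes lay in several parts of each chromosome. Windows that fell were found in 25 of the 127 segments of 1 Mb that held any window on chromosome 4, in 11 of 61 on chromosome 13 and in 30 of 61 on chromosome 18. A segment held a median of 21 windows on chromosome 4, 17 on chromosome 13 and 45 on chromosome 18. Segments of chromosome 18 thus had more windows that could fall. Segments of other chromosomes were not counted, so this spread has no comparison. Over all windows the share that fell was 6.17%. The segment with the most losses by count was on chromosome 18 from 47000001 to 48000000, where 15 of 144 windows fell (10.4%), in 6 separate regions, and none rose. By share, smaller segments stood above it, such as 74000001 to 75000000 on chromosome 18 with 11 of 77 windows (14.3%) and 54000001 to 55000000 on chromosome 4 with 5 of 21 (23.8%). The segment before it, from 46000001 to 47000000, held the most windows of the chromosome, 248, of which 13 fell in 5 regions and 1 rose. The segment of chromosome 4 with the most losses was 57000001 to 58000000, with 8 of 45 windows in 2 regions, and that of chromosome 13 was 45000001 to 46000000, with 5 of 61 windows in 2 regions.

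The ends of the chromosomes were counted apart, beside 6.17% lower and 1.27% higher windows in the whole table. In the first 5 Mb of chromosome 4, 10 of 430 windows rose (2.33%) and none fell, with a median log2 fold change of 0.26. Of the 2772 windows between its ends, 30 rose (1.08%) and 69 fell (2.49%), with a median of 0.09. In its last 5 Mb none of 80 windows, in 18 regions, rose or fell, too few to read as a difference. The segment from 2000001 to 3000000, which held the most windows of the chromosome (145), had 3 that rose and none that fell. On chromosome 13, 3 of 129 windows fell (2.33%) and 4 rose (3.10%) in the first 5 Mb that held windows. In the last 5 Mb 1 of 196 fell and 1 rose (0.51% each). On chromosome 18, 10 of 308 windows fell (3.25%) and 1 rose (0.325%) in the first 5 Mb. In the last 5 Mb 11 of 224 fell (4.91%) and 5 rose (2.23%). The end segments were set after values of these data had been seen, and neighbouring windows share fragments, so these counts are descriptions.

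Single libraries weighed unequally in the calls. Among the 208 windows of the 3 chromosomes that fell, the highest library was Etop replicate 1 at 89 windows and Control replicate 2 at 78, but Control replicate 1 at only 7. The lowest of the 8 was DoxEtop replicate 1 at 87. The table was alike. Of its 15809 windows that fell, Etop replicate 1 was highest at 6473, Control replicate 2 at 6566 and Control replicate 1 at 491. DoxEtop replicate 1 was lowest at 6927 of them. Among the 100 windows that rose, the lowest library was Etop replicate 1 at 63, including 40 of the 51 on chromosome 18. In the table it was the lowest at 1527 of the 3253 windows that rose. The 4 induced libraries were all below the 4 others at 152 of the 208 windows that fell, and all above them at 75 of the 100 that rose. These shares, 73.1% and 75%, were near those of the table, 73.6% of its windows that fell and 76.6% of those that rose. Without Control replicate 2 the calls dropped to 30 on chromosome 4, 7 on chromosome 13 and 34 on chromosome 18, against 109, 33 and 166 with all libraries. The table dropped as well, to 2.59% lower and 0.28% higher. Without Control replicate 1 the calls numbered 126, 43 and 207, and the table had 7.49% lower and 1.77% higher.

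Counts with no model behind them gave more windows above than below. The induced libraries were all below the others at 108 windows of chromosome 4 (3.29%), 41 of chromosome 13 (2.79%) and 176 of chromosome 18 (4.69%), against 7.49% in the table. They were all above the others at 152 (4.63%), 64 (4.36%) and 236 (6.29%) windows, against 4.98% in the table. On each of the 3 chromosomes windows above outnumbered windows below, whereas in the table windows below were the more frequent.

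Both comparisons behind the AIRE effect, Dox vs Control and DoxEtop vs Etop, share no library. Their log2 fold changes had the same sign at 62.7% of the windows of chromosome 4, 59.3% of chromosome 13 and 64.9% of chromosome 18, against 67.3% in the table. Their Pearson correlation across windows was 0.38, 0.28 and 0.42 on chromosomes 4, 13 and 18, against 0.55 in the table. These correlations are across overlapping windows and describe how alike both comparisons were.

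AIRE induction without etoposide gave few calls here. In a model with 1 mean per group, Dox vs Control lowered 1 window on chromosome 4, none on chromosome 13 and 9 on chromosome 18, and raised none (edgeR), against 0.848% lower and 0.0156% higher in the table (0.864% in either direction). As regions, 3 fell on chromosome 18 and none on the other two or upward, against 1.84% lower and 0.0168% higher in the table. Windows with an unadjusted p below 0.05 numbered 227, 103 and 313 on chromosomes 4, 13 and 18, or 6.92%, 7.02% and 8.34%, against 10.9% in the table. DESeq2 and limma-voom called none on these chromosomes, but in the whole table they called only 71 (0.0277%) and 5 windows, all lower. Leading again was 21451551 on chromosome 18, with 3 counts over both Dox libraries against 51 over both Control libraries (edgeR adjusted p = 0.0228). The ratio of levels was 0.0901, with an exact 95% counting interval of 0.0180 to 0.279. Such intervals pool both replicates and cover counting error only, at windows chosen for small p. The call on chromosome 4 was at the site from 120133501, with 0.572 and 0.662 CPM in Dox against 3.01 and 5.54 CPM in Control (edgeR adjusted p = 0.0389). Neither chromosome 4 nor chromosome 13 had a called region in this comparison. The regions with the smallest p there were 84377001 to 84377200 on chromosome 4 (log2 fold change -2.11, edgeR adjusted p = 0.0783 at its leading window) and 45492051 to 45492700 on chromosome 13 (log2 fold change -1.89, edgeR adjusted p = 0.0973).

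AIRE induction under etoposide gave more. In DoxEtop vs Etop, 23 windows fell and 12 rose on chromosome 4, 7 fell and 4 rose on chromosome 13, and 22 fell and 19 rose on chromosome 18 (edgeR), against 2.43% lower and 0.45% higher in the table (2.88% in either direction). These make 0.701%, 0.477% and 0.587% of windows lower on chromosomes 4, 13 and 18, and 0.366%, 0.273% and 0.507% higher. As regions, 8 fell and 4 rose on chromosome 4, 3 fell and 2 rose on chromosome 13, and 8 fell and 5 rose on chromosome 18, against 5.36% lower and 0.613% higher in the table. The share of windows lower was thus below the table's on all 3 chromosomes. The strongest loss, on chromosome 4 at 141294501 to 141295350, had 0 and 3 counts in the DoxEtop libraries against 58 and 13 in Etop at its leading window, a ratio of levels of 0.0468 with an exact 95% counting interval of 0.00942 to 0.142 (edgeR adjusted p = 0.00225). The interval leaves out the spread between replicates, such as 58 against 13 counts in Etop. At this window the Dox libraries read 1.33 and 1.10 CPM and the Control libraries 1.45 and 5.54 CPM. On chromosome 18 the site at 47252601 to 47252950 had 1.12 and 2.37 CPM in DoxEtop against 8.90 and 7.67 CPM in Etop, a log2 fold change of -2.25 (edgeR adjusted p = 0.00443). On chromosome 13 the site at 20766351 to 20766550 fell by 2.15 on the log2 scale (edgeR adjusted p = 0.0363).

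At the leading gains of DoxEtop vs Etop both Etop libraries were the lowest of the 8. These sites were chosen for the smallest p in this comparison, which favours low Etop levels. At 47916501 to 47916850 on chromosome 4 the DoxEtop libraries had 3.92 and 5.74 CPM and the Etop libraries 0.431 and 1.10 CPM, while Dox read 2.48 and 3.09 and Control 2.89 and 2.85 CPM. At 80914551 to 80914700 on chromosome 13 the DoxEtop libraries had 2.80 and 5.54 CPM and the Etop libraries 0 and 1.10 CPM, while Dox read 1.33 and 4.85 and Control 2.77 and 2.40 CPM. At 77724451 on chromosome 18 the DoxEtop libraries had 5.60 and 5.93 CPM against 0.574 and 1.53 CPM in Etop. Their log2 fold changes were 2.72, 3.13 and 2.53 (edgeR adjusted p = 0.0124, 0.0170 and 0.00816). The counts of this comparison rested on single libraries, with 87 calls over the 3 chromosomes, 0 without DoxEtop replicate 1 and 335 without Etop replicate 2. In that last setting the balance of losses and gains turned, with 127 windows lower and 208 higher, against 52 lower and 35 higher with all libraries. Over all windows 10240 were then lower and 5446 higher. The table too lost almost all of its calls without DoxEtop replicate 1. DESeq2 called 16 windows on these chromosomes, against 2060 lower and 193 higher in the table. With limma-voom 0 were called here, against 14 lower and 13 higher in the table. Whether the AIRE effect differed with etoposide was tested by the interaction, which gave no call.

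Etoposide changed no window that could be called. In the additive model, Etop vs Control, DoxEtop vs Dox and the interaction, edgeR called 0 of the 8500 windows and 0% of the table. DESeq2 and limma-voom also called none on these chromosomes, and at most 8 windows of the table in any of these comparisons. Windows with an unadjusted p below 0.05 numbered 453, 468, 293 and 342 in these 4 comparisons, or 5.33%, 5.51%, 3.45% and 4.02%, against 5.83%, 5.57%, 4.26% and 4.14% in the table. The 4 etoposide libraries were all below the 4 others at 143 windows (1.68%) and all above at 98 (1.15%), against 1.29% and 1.3% in the table. The smallest p of Etop vs Control on chromosome 4 was at 39460151 to 39460400, with 0.144 and 0.438 CPM in Etop against 2.77 and 2.55 CPM in Control. This is a ratio of levels of 0.0975, with an exact 95% counting interval of 0.0193 to 0.306, on 3 counts over both Etop libraries (edgeR adjusted p = 0.855). The interval leaves out the spread between replicates, and the window was chosen for its small p, so it shows no effect of etoposide. With Etop replicate 2 left out, which leaves 1 Etop library that is assumed to vary like the other groups, Etop vs Control gave 7 lower and 1 higher window. The share lower, 0.0824%, was near the table's, 0.0765%. With 2 replicates per group, changes of the size of the standard errors (median 0.534, 0.536 and 0.519 on the log2 scale for a window of chromosomes 4, 13 and 18 in Etop vs Control) were not detectable.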

How the data were processed

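Libraries were made from fixed AIRE-Tet cells, 10% of each sample being kept as input, with 100 bp paired-end reads and each library sequenced 2 times, per the labels' protocols. Trim Galore, Bowtie2, Bowtie and hg19 are named, without versions, in the submitters' processing notes. How windows were chosen and fragments counted is not given in the sources used here. The deposited table holds raw counts per window, made by the authors, in 8 columns, and each window has at least 111 counts in sum, so that low windows are missing by the authors' selection.

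Counts were fitted with edgeR 4.0.16 in R 4.3.3 (TMM scaling on column totals, glmQLFit and glmQLFTest, two-sided). The additive model of AIRE induction and etoposide had 5 residual degrees of freedom and the model of 4 group means had 4. Fits and Benjamini-Hochberg adjustment (0.05) ran over all 256141 windows, of which filterByExpr removed 0, and all 8500 members were kept. CPM divides each count by its library's TMM-scaled total, with a prior count of 2 on the log2 scale. Alternatives included DESeq2 1.42.0 and limma-voom (limma 3.58.1). The procedure was tested on simulated data. P-values measure the spread between these 8 samples only.

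Named regions are, on each chromosome, up to 5 lower and up to 5 higher with the smallest Simes p for AIRE induction, and the leading region per direction in other comparisons (where none was called, the smallest p as values). Members, lists and rules were chosen with earlier results of these data known. Replicates of a group differed by more than sampling noise (chi-square per degree of freedom 1.85 to 3.12), so each counted as 1 sample.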

Additional observations from a re-analysis of the deposited data

Results flagged for a closer look

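Among 60 sets of 4 libraries (the induced or uninduced arm at a named window), 5 held 1 library far from the other 3. Chance gives about 1 in 20 sets. At 89300151 on chromosome 4, DoxEtop replicate 2 read 3.76 CPM and the other induced libraries 5.04 to 5.29. In the uninduced arm, Etop replicate 1 read 7.90 CPM at 20766401 on chromosome 13 (others 2.29 to 2.85) and 8.47 CPM at 47037251 on chromosome 18 (others 2.77 to 3.30). Control replicate 1 read 2.17 CPM at 31248301 on chromosome 13 (others 1.32 to 1.44) and 2.29 CPM at 42031251 (others 1.20 to 1.32).

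At 2 windows every library moved in opposite directions with AIRE induction depending on etoposide, although the interaction did not pass (edgeR adjusted p = 1 at each). Both windows had been chosen for the smallest interaction p on their chromosome, which favours opposite directions. At 21538101 on chromosome 18 the mean difference was -4.15 CPM for DoxEtop minus Etop and 0.783 CPM for Dox minus Control. At 40058101 on chromosome 4 it was 3.64 CPM for DoxEtop minus Etop and -0.928 CPM for Dox minus Control.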

How the results depend on the processing

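No sign reversed, but without Etop replicate 2 DoxEtop vs Etop gave 127 lower and 208 higher windows, against 52 and 35. Deviations of same-numbered libraries correlated by -0.08 to 0.12 over all windows. This shows no shared effect of the replicate number but cannot exclude that same-numbered samples were handled together. A replicate block gave 98, 31 and 160 AIRE calls on chromosomes 4, 13 and 18. With RLE scaling, column totals alone, no filter, loess offsets along the mean level (added after seeing the data), DESeq2 and the replicate block, AIRE calls on each chromosome stayed within 1.5 times the main counts of 109 (chromosome 4), 33 (13) and 166 (18). Windows at or above the median level gave 45, 16 and 64, merged regions 40, 12 and 44, and limma-voom 0, 1 and 1 (2 higher windows), with 0 regions against 96 and adjusted p of 0.0499 to 0.39 at the 27 named windows. The percentage lower was below the table's, and the median above it, on each chromosome in all 17 settings. Dox vs Control gave 10 calls, 6 at or above the median level, 6 with the replicate block and 3 as regions. It gave 0 with limma-voom or DESeq2, which called 5 and 71 windows of the table. DoxEtop vs Etop gave 87, then 31, 30 (regions), 16 (DESeq2) and 0 (limma-voom), and the table's calls fell in each of these settings too. The share differences of chromosomes 4 and 13 were 0.139 and 0.0999 with 1 window per region, and 0.0298 and 0.0215 at or above the median level, where the chromosome 4 median was 0.039 against 0.027 over all windows. Causes were not tested, except that the median level and regions test fewer units. Leaving out 1 library gave 30 to 126, 7 to 43 and 34 to 207 AIRE calls on chromosomes 4, 13 and 18, 21 to 124 regions, 0 to 28 calls for Dox vs Control, 0 to 335 for DoxEtop vs Etop and 0 to 8 for Etop vs Control. Share differences ranged over 0.0574 to 0.108, 0.0363 to 0.0564 and 0.0967 to 0.147, and medians over 0.06 to 0.15, 0.08 to 0.17 and 0.12 to 0.18. With a median of 147 to 155 counts per window over 8 libraries, depth limits small changes.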
